A study of Mus musculus with 12 samples.

Results

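Ras proteins are small GTPases that signal while they hold GTP. Exchange factors such as RasGRF2 load them with GTP, and GTPase-activating proteins (GAPs) speed the hydrolysis that turns them off, so the level of active Ras is set between these opposing enzymes. In neurons Ras signalling downstream of calcium and of growth factor receptors is known from synaptic plasticity and from the growth and survival of young neurons. The genes described here are the GTPase genes Hras, Nras, Rras, Rras2 and Mras and the GAP genes Nf1, Rasa1 and Rasal1, chosen by name. Of these 8 genes 7 were measured among 19938 genes, 4 GTPases and 3 GAPs. Hras was not analysed here, because the probe annotation used gave it no probe set of its own.

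The RNA came from the hippocampus and the olfactory bulb of adult C57BL/6 mice, 3 of them wild type and 3 lacking RasGRF2 (labelled GRF2 KO), housed in a conventional facility and exposed to common pathogens. Each of the 12 samples was hybridised to its own 1-colour array, which gives 4 groups of 3, and the hippocampi and bulbs came from the same 6 animals. The mutant allele, its removed exons and how the controls were bred are not described by the labels. Values are log2 intensities made by robust multi-array averaging (RMA), and a difference of 1 on this scale is a doubling. A probe's brightness depends on its sequence, so levels are compared between samples for each gene and not between genes.

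The labels held against the tissue markers. All 8 hippocampal neuron markers were higher in hippocampus and all 8 olfactory bulb neuron markers were higher in bulb, in both genotypes (limma, adjusted p under 0.05). The mean of the hippocampal list was 9.80 to 9.94 in the hippocampal arrays and 7.66 to 7.84 in the bulb arrays. In wild-type bulb replicate 1 the mean of 5 genes of olfactory sensory axons and mucosa was 8.34, against 7.16 to 7.54 in the other bulb arrays. Cyp2g1 and Stoml3 stood out most, at 8.3, 5.7 and 5.6 and at 10.1, 9.2 and 7.9 in wild-type bulb replicates 1, 2 and 3. On the same arrays Omp read 8.9, 8.9 and 8.8, S100a5 9.2, 9.1 and 8.6, and Cnga2 5.3, 4.7 and 4.9. The targeted gene Rasgrf2 fell by 0.58 in knockout hippocampus (SE 0.0772, adjusted p = 0.00197), and in knockout bulb it differed by -0.14 (SE 0.0772, adjusted p = 0.532). Its 3 knockout values lay under its 3 wild-type values in each tissue. Over all genes the genotype groups did not overlap, in either direction, for 13.1% in hippocampus and 17.1% in bulb. Where the Rasgrf2 probes lie relative to the removed exons is not described, and probes outside those exons would not check the deletion.

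Of the 7 genes, 5 differed between the tissues and 0 passed between the genotypes. Over all genes, 30.6% passed between the tissues in both genotypes in the same direction. Between the genotypes 0.256% passed in hippocampus and 0.411% in bulb. Rras2, Mras and Rasal1 were higher in hippocampus than in olfactory bulb and Rasa1 and Nf1 were lower, in wild-type and in knockout mice. The Nf1 calls were lost in both genotypes with the animal as a fixed block and with median centring of the arrays, while those of the other 4 held. The differences ran from 2.53-fold in wild type and 3.01-fold in knockout for Rasal1 down to 1.18-fold and 1.16-fold for Nf1. Nras and Rras did not pass the tissue test in either genotype. No member passed the test between knockout and wild type in either tissue. The lowest value of any member on any array was 7.16, above the array medians of 6.82 to 6.89 in hippocampus and 6.93 to 6.96 in bulb.

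**Figure D1:**
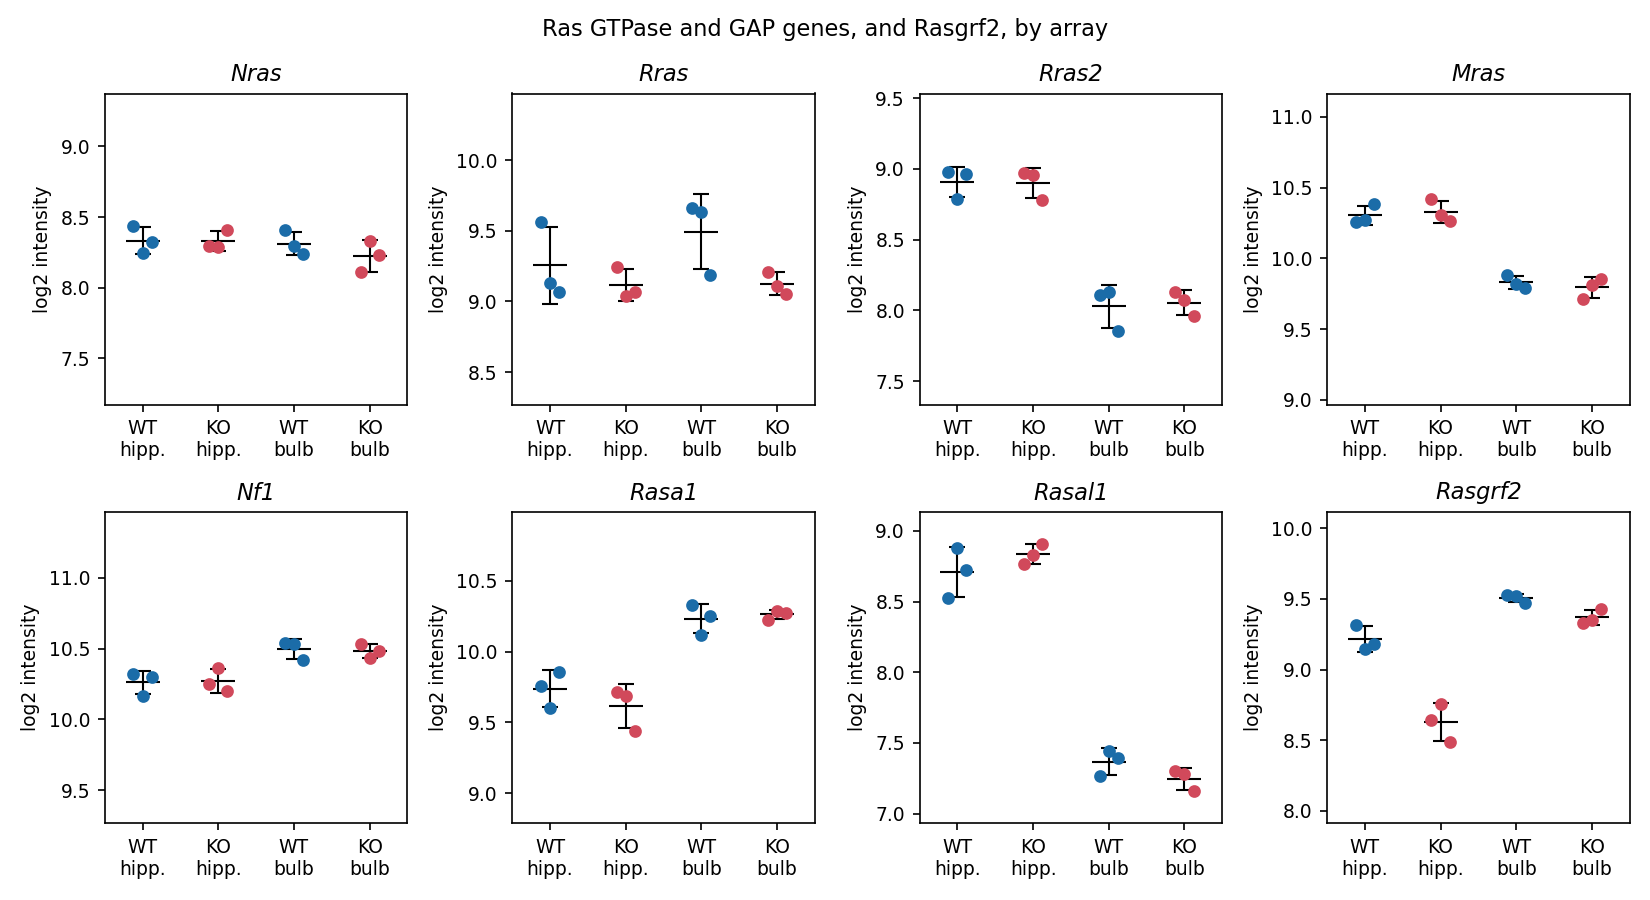
Log2 intensity of each measured gene, and of Rasgrf2, on each of the 12 arrays (points), with the mean and SD of each group of 3 (bars). All panels span the same number of log2 units. Rras2, Mras and Rasal1 sit higher in hippocampus, Rasa1 sits higher in bulb, and the wild-type (WT, blue) and knockout (KO, red) points overlap for every gene but Rasgrf2.

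For a gene that stood higher in hippocampus and one that stood higher in bulb, the 250 bases before the annotated start are shown 5′ to 3′ on the gene's strand, from RefSeq on build GRCm38.p6. Rras2 lies at chr7:114117782-114118031 on the minus strand and Rasa1 at chr13:85289487-85289736 on the minus strand, each ending where the annotated transcript begins. Capitals mark the GC box, a binding motif of Sp and KLF factors, written GGGCGG or on the other strand CCGCCC.
Rras2: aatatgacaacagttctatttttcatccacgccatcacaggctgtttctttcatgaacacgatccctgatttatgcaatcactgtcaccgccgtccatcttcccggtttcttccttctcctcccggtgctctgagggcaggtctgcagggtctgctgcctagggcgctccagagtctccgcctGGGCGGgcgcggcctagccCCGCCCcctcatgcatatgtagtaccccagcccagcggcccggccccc
Rasa1: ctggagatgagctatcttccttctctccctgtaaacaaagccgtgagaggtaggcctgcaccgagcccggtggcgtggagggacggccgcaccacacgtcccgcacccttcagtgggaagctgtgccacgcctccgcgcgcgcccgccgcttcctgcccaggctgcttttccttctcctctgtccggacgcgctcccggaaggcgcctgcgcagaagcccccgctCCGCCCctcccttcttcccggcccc
The Rras2 window holds 2 GC boxes and 14 CpG pairs, and the Rasa1 window 1 GC box and 24 CpG pairs. A GC box stands in 32.7% of all 32851 windows of this kind, and the median window has 6 CpG pairs. Among the other members, the Nras and Mras windows hold 2 GC boxes each and those of Rras and Nf1 hold 0. Neither window holds the E-box CACGTG (6.02% of windows), the cAMP response element TGACGTCA (1.55%) or the Egr motif GCGTGGGCG (0.536%), searched on both strands. These matches describe the letters only. Of the 7 measured genes 6 have a window in the table, and Rasal1 is the gene without one.

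Nras encodes N-Ras, one of the classical Ras proteins that feed the Raf kinases. In wild-type hippocampus it read 8.44, 8.24 and 8.32 on the 3 arrays, and in knockout hippocampus 8.29, 8.29 and 8.41. In the bulb it read 8.41, 8.29 and 8.24 in wild type and 8.11, 8.33 and 8.23 in knockout. All 4 groups overlapped. The tissue difference, hippocampus minus bulb, was 0.02 (SE 0.0792, 95% interval -0.15 to 0.19) in wild type and 0.11 (-0.06 to 0.27) in knockout, with adjusted p of 0.857 and 0.327. Knockout minus wild type was -0.0036 (-0.17 to 0.17) in hippocampus and -0.09 (-0.26 to 0.08) in bulb, so the intervals allow a change of at most 1.13-fold and 1.20-fold.

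Rras2 encodes TC21, a Ras relative that engages PI3-kinase. It read 8.98, 8.79 and 8.97 in wild-type hippocampus and 8.97, 8.96 and 8.78 in knockout hippocampus. In wild-type bulb it read 8.11, 8.13 and 7.85, and in knockout bulb 8.13, 8.07 and 7.96. Every hippocampal array lay above every bulb array. Hippocampus exceeded bulb by 0.88 in wild type (SE 0.0903, limma adjusted p = 1.3e-06), or 1.84-fold, and by 0.85 in knockout (adjusted p = 2.02e-06), or 1.80-fold. The knockout means stood within 0.03 of the wild-type means, at -0.0090 (95% interval -0.20 to 0.18) in hippocampus and 0.03 (-0.17 to 0.22) in bulb.

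Mras encodes M-Ras, which joins Shoc2 and a protein phosphatase in a complex that activates Raf. It read 10.26, 10.27 and 10.38 in wild-type hippocampus and 10.42, 10.31 and 10.26 in knockout hippocampus. The bulb arrays read 9.88, 9.82 and 9.79 in wild type and 9.71, 9.82 and 9.85 in knockout. The tissues again did not overlap. The difference was 0.47 in wild type (SE 0.0698, adjusted p = 5.62e-05), or 1.39-fold, and 0.54 in knockout (adjusted p = 1.62e-05), or 1.45-fold. Mras alone among the members has a second probe set of its own, on which the tissue differences were 0.41 (adjusted p = 0.000666) and 0.47 (adjusted p = 0.000197). Knockout minus wild type had opposite signs on the probe sets in hippocampus, 0.03 on the brighter and -0.07 on the other, and was -0.04 and -0.13 in bulb, none of them past the threshold.

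Rras encodes R-Ras, known for its part in integrin adhesion and in blood vessels. Its pooled SE, 0.134, was the highest of the 7 members. In hippocampus the wild-type arrays read 9.57, 9.13 and 9.07 and the knockout arrays 9.24, 9.04 and 9.07. In bulb they read 9.66, 9.63 and 9.19 in wild type and 9.21, 9.11 and 9.05 in knockout. Wild-type hippocampal replicate 1 and wild-type bulb replicates 1 and 2 stood above the other 9 arrays, and the groups overlapped in each tissue. The SD was 0.27 and 0.26 in the wild-type groups and 0.11 and 0.080 in the knockout groups (n = 3 each).

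In bulb, Rras differed by -0.37, knockout minus wild type (SE 0.134, 95% interval -0.65 to -0.08), or 1.29-fold lower in knockout. At an adjusted p under 0.05, 0.226% of all genes were lower in knockout bulb. Rras did not pass (adjusted p = 0.338, unadjusted p = 0.0155, exact permutation p = 0.2 where 3 against 3 cannot give less than 0.1). At an unadjusted p under 0.05, 11.3% of all genes were called in the bulb. In hippocampus the difference was -0.14 (-0.43 to 0.15, adjusted p = 0.767), and it was 0.016 without wild-type replicate 1. The bulb difference was -0.28 and -0.30 without wild-type replicates 1 and 2 and -0.52 without wild-type replicate 3, and none of these passed (lowest adjusted p = 0.0946). Averaged over the tissues of each animal, the difference was -0.25 (SE 0.0982, adjusted p = 0.418). It was -0.14 without the wild-type animal coded I547, whose bulb and hippocampus both read high. Over the 12 alternatives run for this comparison it went from -0.376 to -0.141, and none passed (limma, lowest adjusted p = 0.0673). Between the tissues Rras differed by -0.24 in wild type (adjusted p = 0.176) and by -0.0097 in knockout (adjusted p = 0.965). The wild-type difference passed without hippocampal replicate 1 (-0.39, adjusted p = 0.0223) or bulb replicate 3 (-0.39, adjusted p = 0.0227).

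Some genes of meninges and fibroblasts moved with Rras on several of these arrays. The mean of the 5 markers Lum, Dcn, Col1a1, Col1a2 and Slc6a13 was 8.27 in wild-type hippocampal replicate 1 and 8.04 and 7.99 in wild-type bulb replicates 1 and 2, the 3 arrays where Rras was highest. It was 7.96 in wild-type hippocampal replicate 3, where Rras was at 9.07, and 7.63 to 7.79 on the other 8 arrays. The 5 genes did not all follow Rras from array to array. Dcn, a fibroblast proteoglycan gene, read 10.24, 9.86 and 9.14 in wild-type bulb replicates 1, 2 and 3, but in wild-type hippocampus 10.22, 9.78 and 10.24, highest in the replicate where Rras was lowest. Slc6a13, a transporter gene of the leptomeninges, read 8.93, 9.09 and 8.33 in wild-type bulb and 9.09, 7.55 and 8.07 in wild-type hippocampus. The collagen gene Col1a1 read 7.95, 7.88 and 7.94 in wild-type bulb, with no separation of replicate 3. On the same arrays Col1a2 read 7.832, 7.683 and 7.675 and Lum 5.237, 5.421 and 5.156. In both, replicate 3 was lowest, but by less than in Dcn or Slc6a13. The list lay lower in knockout for 5 of 5 genes in bulb (median -0.146) and 3 of 5 in hippocampus (median -0.436), with 0 past the threshold in either tissue.

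Other markers also stood high on some of these arrays. The mean of 6 genes of endothelium and mural cells was 8.51 in wild-type hippocampal replicate 1 and 8.51 in wild-type bulb replicate 2, 8.39 in wild-type bulb replicate 1, and 8.17 to 8.42 on the other 9 arrays. In wild-type hippocampal replicates 1, 2 and 3 the widest spread was in Acta2, at 9.3, 8.3 and 8.9. Pecam1, Flt1 and Pdgfrb were also highest in replicate 1, by less than Acta2, and Cldn5 and Rgs5 were not. The list lay lower in knockout for 5 of 6 genes in bulb (median -0.079) and 4 of 6 in hippocampus (median -0.066), and 0 of 6 passed in either tissue. The mean of 4 choroid plexus genes was 7.91 in wild-type hippocampal replicate 1 against 7.12 and 7.22 in the other wild-type hippocampi, and 7.38 to 7.60 in knockout hippocampi. Most of that spread lay in Ttr, at 11.7, 8.8 and 9.8 in wild-type hippocampal replicates 1, 2 and 3. On the same arrays Kl read 7.9, 7.8 and 7.7, Folr1 6.7, 6.4 and 6.1, and Kcne2 5.4, 5.5 and 5.2. The part of these cells in the Rras values was not tested.

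**Figure D2:**
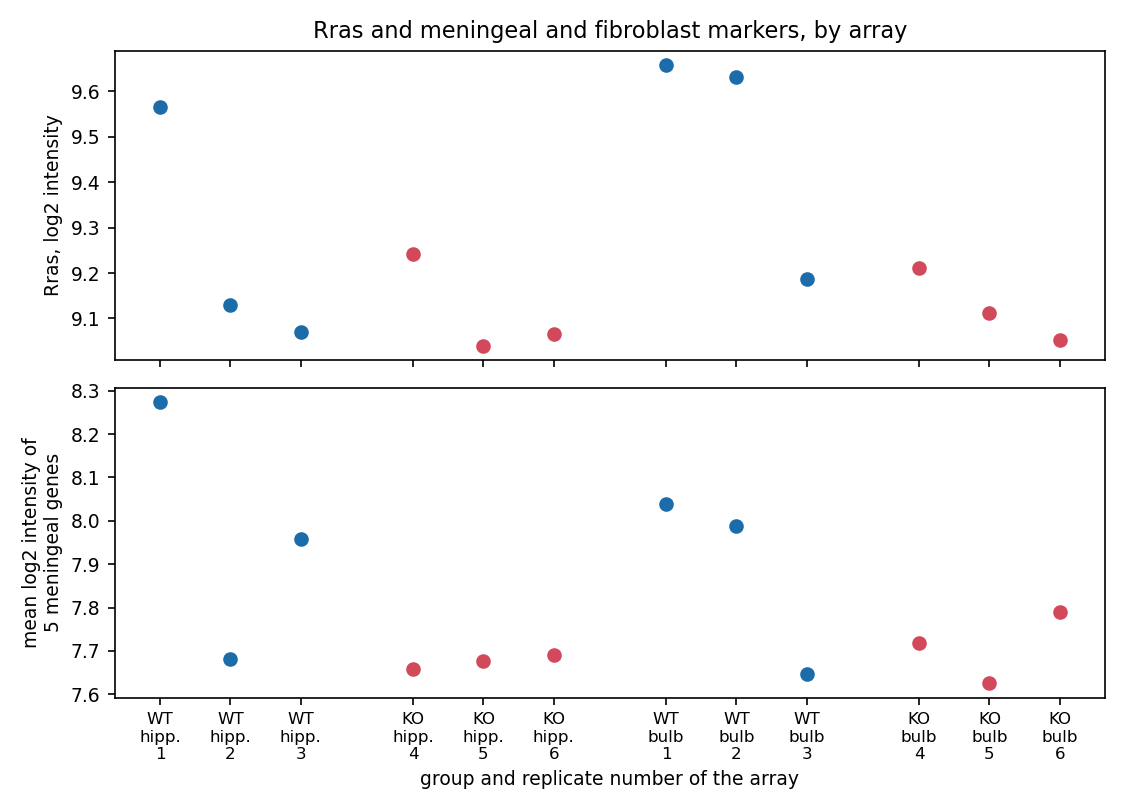
Log2 intensity of Rras (top) and mean log2 intensity of 5 meningeal and fibroblast markers (bottom) on each of the 12 arrays, which are ordered by group and replicate number. The arrays with Rras at 9.57, 9.66 and 9.63 carry marker means of 8.27, 8.04 and 7.99, and wild-type hippocampal replicate 3 carries a marker mean of 7.96 with Rras at 9.07.

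Rasal1 encodes a GAP whose membrane binding follows calcium, and it showed the widest tissue difference of the members. It read 8.53, 8.88 and 8.72 in wild-type hippocampus and 8.76, 8.83 and 8.91 in knockout hippocampus. In bulb it read 7.27, 7.45 and 7.39 in wild type and 7.30, 7.28 and 7.16 in knockout. The hippocampal arrays all lay more than 1 log2 unit above the bulb arrays. The difference was 1.34 in wild type (SE 0.0884, adjusted p = 9.9e-09) and 1.59 in knockout (adjusted p = 1.42e-09), which placed it at percentile 97.5 and 98.3 of all genes by absolute size. The knockout difference was 0.12 in hippocampus (95% interval -0.06 to 0.31, adjusted p = 0.692) and -0.12 in bulb (-0.31 to 0.07, adjusted p = 0.623). The test of the difference between these effects, 0.25 (SE 0.125), gave an adjusted p of 0.489.

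Rasa1 encodes p120 RasGAP, which binds activated receptor tyrosine kinases. It read 9.76, 9.60 and 9.86 in wild-type hippocampus and 9.72, 9.69 and 9.44 in knockout hippocampus. In bulb it read 10.33, 10.12 and 10.25 in wild type and 10.23, 10.29 and 10.28 in knockout. All bulb arrays lay above all hippocampal arrays. Hippocampus minus bulb was -0.49 in wild type (SE 0.0896, adjusted p = 0.000372), a 1.41-fold difference, and -0.65 in knockout (adjusted p = 2.88e-05), a 1.57-fold difference. The knockout difference was -0.13 in hippocampus (-0.32 to 0.07, adjusted p = 0.693) and 0.03 in bulb (-0.16 to 0.22, adjusted p = 0.925).

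Rasa1 is the member that shares a chromosome with Rasgrf2, chromosome 13, with 12 measured genes between them in the gene order of GRCm38.p6. None of the 12 genes passed the test of knockout against wild type in either tissue, and their differences ran from -0.26 to 0.12 in hippocampus and from -0.21 to 0.26 in bulb.

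Nf1 encodes neurofibromin, the GAP lost in neurofibromatosis and a brake on Ras in neurons and glia. It read 10.32, 10.17 and 10.30 in wild-type hippocampus and 10.25, 10.36 and 10.20 in knockout hippocampus. In bulb it read 10.54, 10.54 and 10.42 in wild type and 10.53, 10.43 and 10.48 in knockout. Hippocampus and bulb did not overlap in either genotype. Hippocampus minus bulb was -0.24 in wild type (SE 0.0717, adjusted p = 0.0154) and -0.21 in knockout (adjusted p = 0.0284). These calls were lost when each array was centred on its median (-0.12 with adjusted p = 0.235 and -0.14 with adjusted p = 0.15) and with the animal as a fixed block (adjusted p = 0.0593 and 0.0829), and kept with it as a random block. Knockout minus wild type was 0.0095 in hippocampus and -0.01 in bulb, and the intervals allow at most a 1.12-fold change in either tissue.

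**Figure D3:**
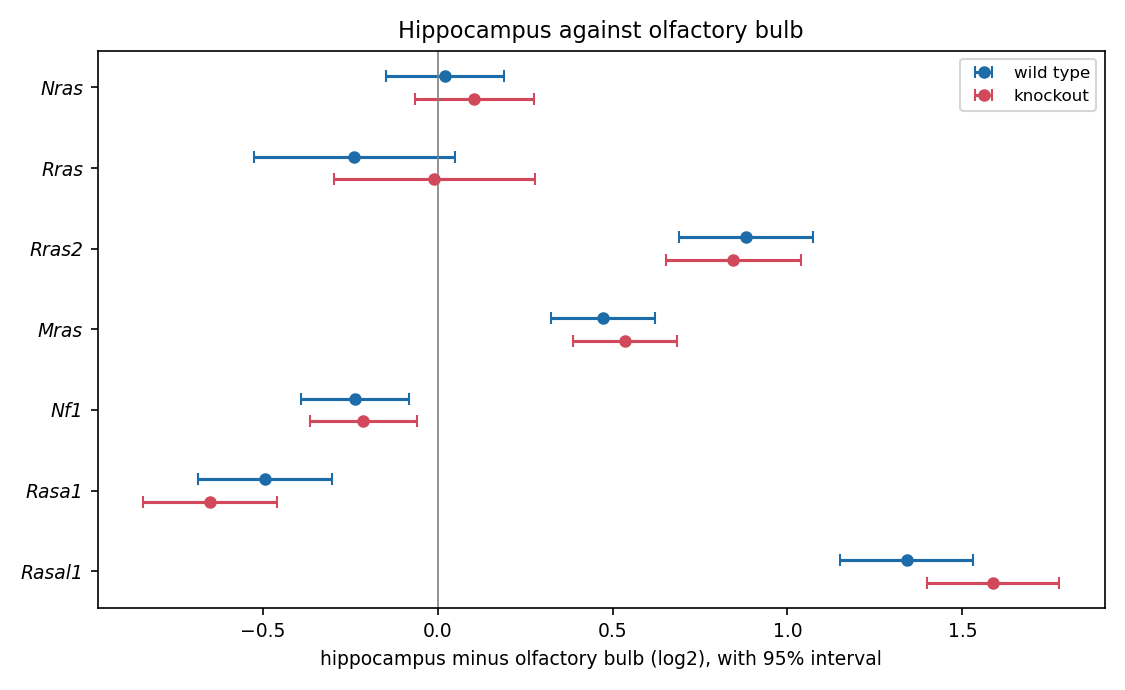
Hippocampus minus olfactory bulb on the log2 scale for each gene (points) with limma's 95% interval (bars), in wild type (blue) and knockout (red). Rasal1 stands farthest to the right at 1.34 and 1.59, Rasa1 farthest to the left at -0.49 and -0.65, and the intervals of Nras and Rras include 0 in both genotypes.

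Across the members, 5 of 7 passed the tissue test in wild type, where 40.9% of all genes did, and 5 of 7 in knockout, where 39.1% did. In each genotype 3 members were higher in hippocampus, where 17.5% of genes were in wild type and 19.2% in knockout, and 2 were lower, where 23.4% and 19.9% were. At an unadjusted p under 0.05 the same 5 were called, against 48.2% and 46.2% of genes. The same 5 passed in both genotypes in the same direction, against 30.6% of genes (14.3% higher and 16.3% lower). The groups did not overlap for 5 of 7 members in each genotype, against 50.9% of all genes in wild type and 48.9% in knockout. The median absolute difference of the members was 0.472 in wild type and 0.535 in knockout, against 0.181 and 0.170 over all genes. By mean signal the 7 members lay at percentiles 63.1 (Rasal1) to 95.3 (Nf1) of all genes. With only genes above the median mean signal kept, 6342 genes passed in wild type and 6263 in knockout. These are larger shares of the genes kept than the shares over all genes. The members were not compared with genes of like signal. Centring the arrays moved the median of all genes from -0.071 to 0.042 in wild type, and the share of calls that were higher in hippocampus from 42.7% to 63.0%. In knockout that median went from 0.013 to 0.083 and the share from 49.2% to 62.8%. Rras2, Mras, Rasal1 and Rasa1 kept their calls and directions under centring and under the other alternatives run. The tissues differ in their cells, and in whole tissue a smaller number of cells that make a transcript and less of it per cell cannot be told apart.

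Between genotypes 0 of 7 members passed in hippocampus, where 0.256% of all genes did, and 0 of 7 in bulb, where 0.411% did. With the tissues averaged per animal 0 of 7 passed as well (0.577% of genes), and 0 of 7 passed the test of a knockout effect that differs between tissues (0.015%). At an unadjusted p under 0.05 the members numbered 0 in hippocampus, where 8.91% of genes did, 1 in bulb, which was Rras, and 0 in the test of the difference between tissues (10.7%). Averaged per animal it was 1, again Rras (9.93% of genes). No member's knockout and wild-type arrays were fully apart, where 13.1% of genes were in hippocampus, 17.1% in bulb and 15.1% averaged per animal. Median absolute differences were 0.026 in hippocampus and 0.037 in bulb, against 0.074 and 0.079 over all genes. Apart from Rras, the intervals allowed at most a 1.25-fold change in hippocampus (Rasa1) and a 1.24-fold change in bulb (Rasal1).

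**Figure D4:**
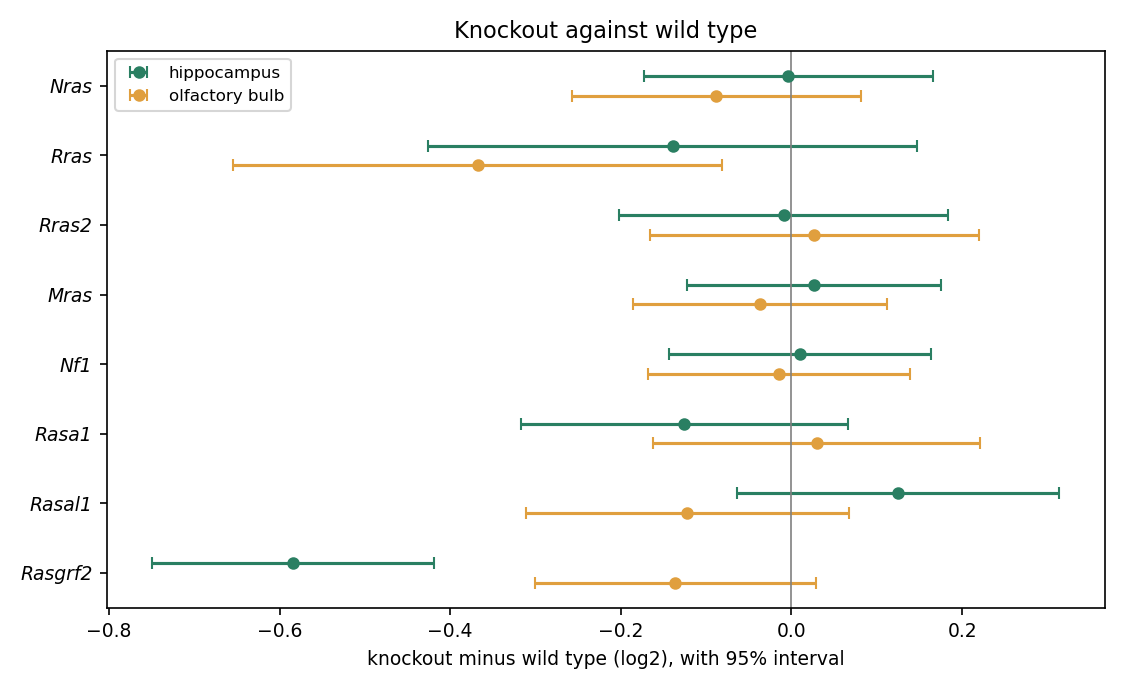
Knockout minus wild type on the log2 scale for each gene and for Rasgrf2 (points) with limma's 95% interval (bars), in hippocampus (green) and olfactory bulb (orange). The member intervals include 0 except that of Rras in bulb, at -0.37, which did not pass after adjustment; Rasgrf2 in hippocampus lies at -0.58.

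Another 73 genes of the pathway were measured, Rasgrf2 among them. In wild type 21 were higher in hippocampus and 24 lower, and in knockout 21 were higher and 23 lower. These are 61.6% and 60.3% of the 73, where 40.9% and 39.1% of all genes were called. The 73 were not matched to all genes by signal. With only genes above the median mean signal kept, 6342 genes passed in wild type and 6263 in knockout, larger shares than over all genes. Among 7 other genes listed with the GAPs, 4 were lower in hippocampus and 2 higher in both genotypes. The 4 include Iqgap1 (-0.52 in each genotype), listed for its GAP-related domain. Rasa2 and Rasa3, relatives of Rasal1, were lower, the direction opposite to Rasal1, at -1.69 and -1.42 in wild type (limma adjusted p = 2.18e-09 and 3.58e-10) and -1.67 and -1.45 in knockout. Rasa4, of the same family, stood at -0.78 (adjusted p = 3.94e-06) and Dab2ip at 0.72 (adjusted p = 3.75e-06) in wild type. Among 8 exchange factors, 1 was higher in hippocampus and 4 lower in both genotypes, where 14.3% of all genes were higher and 16.3% lower. Rasgrf1 was higher by 0.47 in wild type and 0.40 in knockout. Rasgrp2 (-1.38 and -1.33), Sos2 (-0.59 and -0.60) and the targeted gene Rasgrf2 (-0.29 and -0.74) were lower.

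Of 21 Ras-related GTPases, 7 were higher in hippocampus and 6 lower in both genotypes, where 14.3% of all genes were higher and 16.3% lower. Rasl10a (1.97 in wild type and 1.89 in knockout), the dexamethasone-inducible Rasd1 (1.79 and 2.06) and Rap2b (1.08 and 1.22) were higher, and Rasl11b (-1.17 and -1.14) was lower. Among 14 genes of Ras processing and turnover, 4 were higher and 1 lower in both genotypes. Lztr1, whose product directs the ubiquitination of Ras proteins, was higher by 1.04 in wild type and 0.95 in knockout. The depalmitoylase gene Abhd17a was higher by 0.47 and 0.49, and the gene that was lower was Zdhhc9, a palmitoyltransferase, at -0.45 and -0.39. Among 20 effector genes, 5 were higher and 6 lower in both genotypes, with Plce1, a phospholipase C that binds Ras, at -1.20 in each and Tiam1, a Rac exchange factor, at -0.67 and -0.68. Of the 3 Spred genes, whose products recruit neurofibromin to the membrane, none passed in both genotypes. Spred2 passed in wild type (0.28, limma adjusted p = 0.00291) and stood at 0.02 in knockout (adjusted p = 0.866), and Spred3 passed in knockout (0.33, adjusted p = 0.00284) and stood at 0.06 in wild type (adjusted p = 0.546). The test of the difference between genotypes gave adjusted p of 0.389 for Spred2 and 0.421 for Spred3. Between genotypes, the 1 call among the 73 in hippocampus was Rasgrf2, the targeted gene itself, and none of the rest passed there (0.256% of all genes did). In bulb there were 0 calls (0.411% of all genes).

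For the 5 members called between tissues, the genes with the most similar pattern were found by the root mean square difference over the 12 arrays, after each gene was centred on its own mean. For Rras2 these were Glo1 (0.051), Med27 (0.059) and Gpr12 (0.066), and for Mras they were Ccpg1 (0.049), Mrpl30 (0.052) and Txndc9 (0.053). Rasal1 was nearest to Tenm2 (0.087), Sstr4 (0.096) and Mical2 (0.099). Rasa1 was nearest to Bmpr1a (0.048), Kmt2c (0.057) and N4bp2l2 (0.060), and Nf1 to Cdk16 (0.036), Lrp6 (0.037) and Ylpm1 (0.039). The 12 arrays share 6 animals and the tissue contrast. The somatostatin receptor gene Sstr4 was higher in hippocampus by 1.40 in wild type and 1.49 in knockout.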

How the data were processed

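Each array's deposited column holds log2 values, 1 for every probe set, which per the submitters' processing notes came from RMA in the oligo package. RMA corrects background, equalises the distribution of the arrays it is run on and shrinks differences of dim probes. Software versions, and whether both tissues went through RMA as 1 set, are not given here. Of 35556 probe sets, 21789 carry 1 gene symbol in the platform's annotation. Each of 19938 genes was represented by its brightest probe set over the 12 arrays, and no low signal was filtered.

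Differences were tested on the log2 scale with limma 3.58.1 in R 4.3.3 (lmFit, eBayes), as 1 model of 4 group means, with Benjamini-Hochberg adjustment over all genes and a threshold of 0.05. A further fit used each animal's mean over its tissues, joined by the animal code in the labels, which differs from the title number for a pair of wild-type animals. Deviations from the group mean correlated across genes with r of -0.255 to 0.116 for samples of 1 animal by the code. For the other pairs of a hippocampus and a bulb within a genotype r was -0.325 to 0.359. Figures were drawn with matplotlib 3.10.9.

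The members, pathway lists and marker lists were chosen with earlier results of these data known, and 130 of 135 list entries were measured. The genes named are the members, Rasgrf2, list genes past the threshold between genotypes, and at most 4 a list between tissues. Also named are the 3 nearest patterns for each of the 5 members called between tissues. A few markers, Zdhhc9, Iqgap1, Spred2 and Spred3 were chosen after their values were seen. The code was tested on simulated data.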

Additional observations from a re-analysis of the deposited data

How the results depend on the processing

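The differences of the 7 measured genes were recomputed in 622 combinations of comparison and setting. Of these, 607 kept their side of the threshold, 13 lost a call, 2 gained one and 0 reversed a call, while 50 differences that passed in neither setting changed sign. All 13 lost calls were those of Nf1 between tissues, and both gained ones those of Rras in wild type. Nf1 passed in 9 of 15 alternatives in wild type (-0.276 to -0.123) and in 8 of 15 in knockout (-0.258 to -0.142). With the animal code as a fixed replicate block its differences stayed at -0.237 and -0.212 with adjusted p of 0.0593 and 0.0829, and pairing by title number gave 0.0521 and 0.0829. The block changed no other call of a member. The members called between tissues numbered 4 to 6 in wild type and 4 to 5 in knockout, and 0 under every alternative run for the genotype comparisons. Over all genes the hippocampal count of 51 became 125 with every probe set, 336 with array weights, 28 with only the groups compared, and 30, 33 and 32 without wild-type replicates 1 and 3 and knockout replicate 5. The bulb count of 82 became 136 with a robust trend, 36 with only the groups compared, 38 and 40 without wild-type replicates 1 and 2, and 41, 50 and 35 without knockout replicates 4, 5 and 6. The count of 3 for the difference of effects became 12 with array weights and 0 with every probe set, with either block, and without knockout replicate 4 of either tissue. The count of 115 averaged per animal became 181 with a robust trend. It became 69 without the wild-type animal coded N135 (bulb replicate 1 and hippocampal replicate 2) or knockout animal 4. The number of arrays, 3 a group, limits all values.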
